A study of Vernicia fordii with 6 samples.

Results

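Chromatin modifiers and DNA methylation enzymes were examined in male and female flower buds of the tung tree (Vernicia fordii), a monoecious woody oil plant that bears both kinds of flower on the same inflorescence. The members are all unigenes whose SwissProt description names a histone-lysine methyltransferase or demethylase, a histone acetyltransferase or deacetylase, a chromatin or SWI/SNF protein, a Polycomb protein, a DNA cytosine methyltransferase, DEMETER or ROS1. This rule found 131 of 56065 unigenes, under 82 different protein names, of the 20038 unigenes with a SwissProt description. RNA was sequenced from 3 samples of stage 7 male flower buds and 3 samples of stage 7 female flower buds of the field-grown cultivar Duisuitong, with no treatment and no mutant line. All 6 samples are labelled with an age of 4 years. Each sample pooled many flowers, and male and female buds were taken from the same plant. Stage 7 is the stage at which the study first saw male and female flowers diverge in shape, and the comparison asks which genes differ at that point.

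In plants, DNA methylation is written by several families of cytosine methyltransferases and removed by DNA glycosylases, and in Arabidopsis the transposon-rich part of the genome is kept silent in this way. Polycomb complexes place a repressive methyl mark on histone H3 and keep floral homeotic genes off outside the flower and in the wrong whorl, while Trithorax-type methyltransferases, histone acetyltransferases and SWI/SNF remodelers are known for opening the same genes. Names below are those of the best SwissProt match, mostly an Arabidopsis protein, and roles are those known in Arabidopsis unless another species is given. Several unigenes share a name. They may be pieces of 1 transcript or close copies that divide reads between them, so that values of unigenes with the same name are uncertain on their own.

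The 6 libraries differed in depth, with 14099287 to 16849489 reads on unigenes in male samples and 11467832 to 40385019 in female samples. Female replicate 3 stood apart, with the lowest read total and a TMM factor of 0.319, against 0.808 to 1.86 in the other libraries. Values are given in CPM, reads scaled to a common library total by TMM, which corrects for libraries in which a few unigenes take a large share of reads. Its reads also differed in make-up: 54.9% lay on 5 unigenes, against 1.119% to 36.9% in the other libraries, and photosynthesis unigenes summed to 11054 CPM there, against 955 and 1282 CPM in female replicates 1 and 2 and 2061 to 6820 CPM in male flowers. Their part in the results below was not tested. The labelled sexes were checked with marker lists. Both DEFICIENS unigenes, the B-class gene of petals and stamens, were higher in every male than in every female library (summed 251, 593 and 468 CPM in male and 157, 210 and 165 CPM in female flowers). Of 24 pollen-type unigenes tested, 7 were called higher in male flowers and 0 higher in female flowers, and the summed level of the list ran from 1199 to 1672 CPM in male and from 209 to 379 CPM in female flowers. In the study's staging, stamens are still primordia at stage 7 and pollen forms later. Why pollen-type unigenes were at such levels in these buds was not tested. Of the 5 carpel-type unigenes, 0 were called. Their summed levels did not separate the sexes, at 67.0, 53.9 and 56.6 CPM in male and 67.9, 69.5 and 52.4 CPM in female flowers. Singly, AGL11 (log2 difference, male minus female, -0.52) and SPATULA contig_8582 (-0.58) were higher in every female than in every male library. AGAMOUS (0.29) was higher in every male than in every female library, and the other SPATULA unigenes overlapped. AGAMOUS is a class C gene, which acts in stamens as well as carpels. It made up a large part of the sum, at 28.4, 28.6 and 29.3 CPM in male and 23.0, 27.7 and 19.5 CPM in female flowers. The tapetum-type list (3 tested) had 0 called and summed to 64.0 to 97.8 CPM in male and 29.4 to 53.5 CPM in female flowers. Most of that sum was 1 unigene, ABORTED MICROSPORES contig_5630 (log2 difference 1.07), higher in every male than in every female library. The other 2 measured lower in male flowers, DYSFUNCTIONAL TAPETUM 1 at -0.45 and SF18 contig_8038 at -0.53. Of 5 meristem unigenes tested, 1 was called, WUSCHEL, higher in male flowers. ARGONAUTE 10 contig_11980 measured lower in male flowers, with overlap (-1.21, SE 0.57), and the tested CLAVATA1 unigenes were at -0.39, 0.24 and 0.26. The summed levels of the meristem list overlapped, at 88.2, 68.0 and 66.4 CPM in male and 114.5, 159.4 and 63.3 CPM in female flowers. In whole buds, fewer cells of a type and less RNA per cell cannot be told apart, and the part of such differences in organ make-up in the values below was not tested.

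No member passed the test for a difference between male and female flowers. Of the 131 members, 121 passed the filter on low counts and were tested, and the 10 others never exceeded 1.72 CPM in any library. A unigene was called when edgeR's quasi-likelihood test gave a Benjamini-Hochberg adjusted p under 0.05 with at least a 2-fold difference. By that rule 0 members were called, against 1.7% of the 29327 unigenes tested (1.56% higher in male, 0.143% higher in female). At an unadjusted p under 0.05 there were 9 members (7.44%), against 13.2% of all unigenes. Of these 9, 5 were higher in male flowers (all unigenes, 5.75%) and 4 higher in female flowers (all unigenes, 7.42%). In a fit blocked by replicate number the counts were 3 higher in male (all unigenes, 6.34%) and 7 higher in female flowers (all unigenes, 7.43%), and with library totals without TMM 0 (2.37%) and 4 (4.58%). DESeq2 also called 0 members (all unigenes, 4.01%), with 0.0729 as the smallest adjusted p of a member, and limma on log2(RPKM + 1) called 0 (all unigenes, 1.2%). The smallest adjusted p of a member in edgeR was 0.235 and the median SE of a log2 difference was 0.39. An adjusted p above the threshold does not show that the levels were equal. The study's list of genes that differed between the sexes, made with DEGseq on RPKM values, held 3 of the 131 members.

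The members as a list lay close to the bulk of the transcriptome. The median log2 difference, male minus female, was -0.14 over the 121 tested members and -0.09 over all unigenes tested. By direction alone, 45 members were higher in male and 76 higher in female flowers, against 13346 and 15981 of all unigenes tested. The quartiles of the members were -0.45 and 0.17, and the extremes were -1.63 and 1.26. A difference of at least 2-fold was measured in 9 members (7.44%), against 22.4% of all unigenes. In 11 members all male libraries lay above all female libraries (9.09%, against 10.4% of all unigenes), and in 6 all female libraries lay above all male ones (4.96%, against 9.06%). These shares of the members are below the shares of all unigenes. When libraries were scaled by their totals without TMM, the median of all unigenes moved to -0.41 and that of the members to -0.61, with 20 members higher in male and 101 higher in female flowers, so the directions of small differences hold only relative to the scaling.

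**Figure D1:**
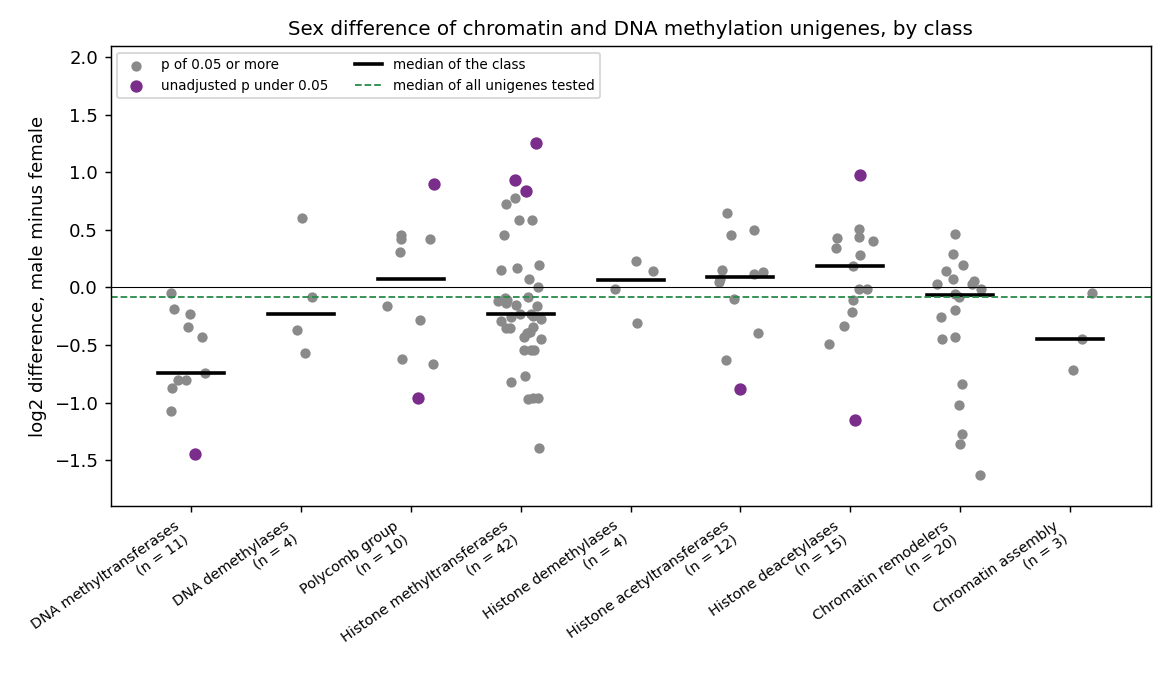
Log2 difference (male minus female, edgeR) of each of the 121 tested unigenes, by class, with the class median as a black bar and the median of all unigenes as a dashed line. The 9 purple points had an unadjusted p under 0.05, 5 above and 4 below 0; all 11 DNA methyltransferase points lie below 0, with a median of -0.74.

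The DNA methyltransferases were the class that leaned furthest to one sex. Of 16 unigenes, 11 were tested, and all 11 measured lower in male than in female flowers (median log2 difference -0.74), though none was called and 1 had an unadjusted p under 0.05. The class was not even across replicates. Its mean level, as log2 CPM centred for each unigene, was 0.27, -0.40 and -0.54 in the male libraries, in the order of their numbers, and 0.82, 0.83 and -0.99 in the female libraries. Female replicate 3 was thus the lowest library, and male replicate 1 stood between the other male libraries and female replicates 1 and 2. All 11 also measured lower in male flowers without female replicate 3 (median -0.88) and when scaled by library totals without TMM (median -1.26), and 10 of 11 did in a fit blocked by replicate number (median -0.61).

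DRM1 and DRM2 are the methyltransferases that set new methylation where small RNAs direct it. The DRM1 unigene contig_19265 had 4.10, 5.33 and 4.21 CPM in male flowers, against 15.6, 17.8 and 3.29 CPM in female flowers. Its groups overlapped because female replicate 3 lay below every male library, and the log2 difference was -1.45 (SE 0.57, edgeR adjusted p = 0.341). Without female replicate 3 it was the 1 member that the test called, at a log2 difference of -1.72 and an adjusted p of 0.0368, where 2.62% of all unigenes were called. The more abundant DRM1 unigene contig_9104, one that the study also tabulated, had 31.2, 23.6 and 14.7 CPM in male and 42.5, 62.3 and 22.2 CPM in female flowers. Here too only female replicate 3 reached into the male range (log2 difference -0.88, SE 0.45, adjusted p = 0.456). With the reads of all 3 DRM1 unigenes summed, the levels were 36.7, 32.0 and 21.0 CPM in male and 62.3, 85.1 and 27.3 CPM in female flowers, and the log2 difference was -0.97 (SE 0.44, adjusted p = 0.411). The DRM2 unigenes differed less, with 46.3, 39.0 and 43.8 CPM in male and 46.4, 71.6 and 28.5 CPM in female flowers for contig_6067 and a log2 difference of -0.43 (SE 0.37) for contig_8288.

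MET1, which copies CG methylation after DNA replication, and CMT3, which methylates CHG sites next to methylated histone H3, varied more within a sex than between the sexes. The unigene contig_26777 was named DNA (cytosine-5)-methyltransferase 1 from a maize protein, and whether it is a MET1 gene was not tested. It had 23.2, 4.58 and 3.89 CPM in male and 33.7, 28.9 and 2.74 CPM in female flowers. CMT3 contig_16164 had 77.3, 17.6 and 15.6 CPM in male and 102.7, 71.2 and 9.87 CPM in female flowers. Male replicate 1 and female replicates 1 and 2 were high in both, and male replicates 2 and 3 and female replicate 3 were low. The tested unigene matched to the Arabidopsis MET1 protein, contig_13773, divided the libraries the same way. It had 32.4, 7.33 and 9.24 CPM in male and 48.1, 31.3 and 4.93 CPM in female flowers. The log2 differences of -1.07 (contig_26777), -0.80 (contig_13773) and -0.74 (contig_16164) had SEs of 0.94, 0.82 and 0.88, about the size of the differences themselves. CMT2, which acts at CHH sites, was more even, with 36.4, 30.8 and 28.5 CPM in male and 41.6, 37.3 and 19.5 CPM in female flowers (contig_10504, log2 difference -0.05, SE 0.35).

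A few other members, picked after their values were seen, divided the libraries in the same way. FAS1, the large subunit of the factor that loads histones onto new DNA, had 18.2, 7.90 and 4.70 CPM in male and 27.6, 20.2 and 1.92 CPM in female flowers (contig_18261). The SET domain protein ASHR3 had 4.53, 0.742 and 0.162 CPM in male and 4.82, 3.52 and 0.548 CPM in female flowers (contig_35791). FAS2, the partner of FAS1, differed less, with 13.1, 6.99 and 7.54 CPM in male and 12.5, 9.995 and 5.48 CPM in female flowers (contig_318). ATXR6, a methyltransferase of replicating chromatin, divided the libraries otherwise, with 2.354, 3.93 and 7.78 CPM in male and 4.53, 1.98 and 2.74 CPM in female flowers (contig_10176). DNA topoisomerase 2, which is not a member and was likewise picked after its values were seen, had 127.2, 18.8 and 18.0 CPM in male and 196.9, 141.4 and 21.9 CPM in female flowers (contig_15220). The 48 tested unigenes of a cell division list had a mean centred level of 0.73, -0.73 and -0.46 in the male libraries, in the order of their numbers, and 0.57, 0.26 and -0.37 in the female libraries, with male replicate 1 highest and female replicates 1 and 2 next. The part of cell division in the levels of MET1, CMT3 and FAS1 was not tested.

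**Figure D2:**
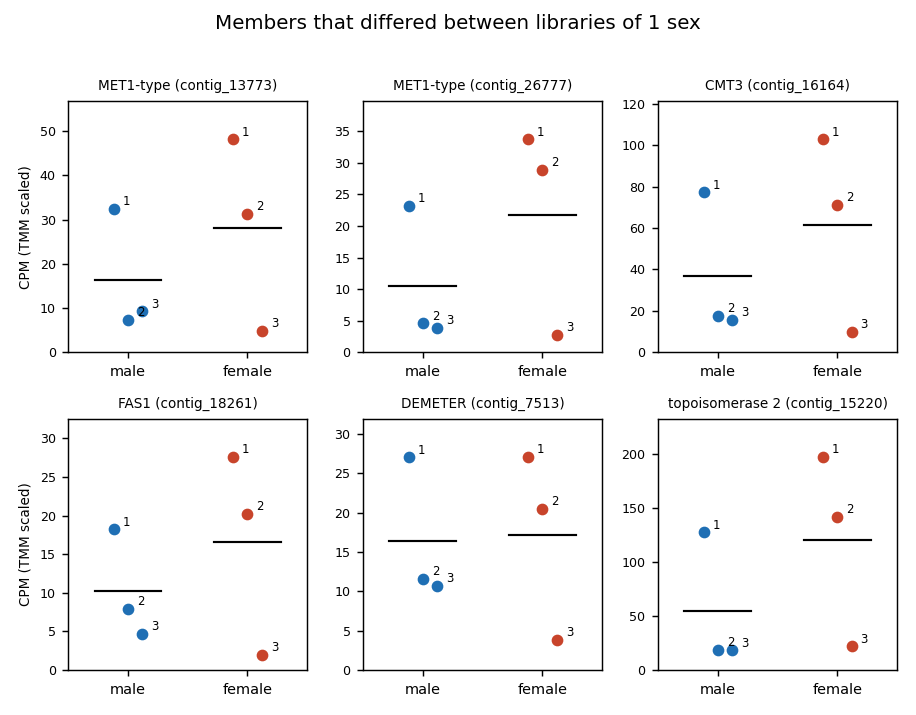
CPM (TMM scaled) of 5 members and of topoisomerase 2 in 3 male (blue) and 3 female (red) libraries, numbered by replicate, with the mean of each sex as a bar and each panel starting at 0. Male replicate 1 and female replicates 1 and 2 are high in all 6 panels, and female replicate 3 is the lowest library in every panel except that of topoisomerase 2.

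The DNA demethylases DEMETER and ROS1 are glycosylases that cut methylated cytosine out of DNA, and DEMETER is known for its action in the central cell of the ovule and in pollen. Of the 4 unigenes, 3 were lower in male flowers (median log2 difference -0.23), also without female replicate 3 (median -0.37), and 2 in the blocked fit (median -0.12). ROS1 had 59.3, 84.7 and 51.8 CPM in male and 94.4, 138.8 and 57.0 CPM in female flowers, with overlapping groups (contig_5652, log2 difference -0.57, SE 0.41, adjusted p = 0.594). The longest DEMETER unigene had 64.3, 82.0 and 59.1 CPM in male and 89.6, 102.7 and 72.4 CPM in female flowers (contig_2008, log2 difference -0.37, SE 0.31). A further DEMETER unigene, contig_7513, followed the MET1 pattern, with 27.03, 11.6 and 10.7 CPM in male and 27.1, 20.5 and 3.84 CPM in female flowers. The short contig_19804 ran the other way, with 3.14, 6.505 and 7.54 CPM in male and 3.83, 4.74 and 2.47 CPM in female flowers (log2 difference 0.61, SE 0.47).

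Of 10 Polycomb unigenes tested, 5 were higher in male and 5 higher in female flowers (median log2 difference 0.08). Scaled by library totals without TMM the counts were 2 and 8 (median -0.49). There EMF2 contig_12816, VERNALIZATION 2 and CURLY LEAF contig_26657 turned to the female side. Without female replicate 3 the median was -0.05, and in the blocked fit it was 0.15. The 5 male-leaning unigenes were 4 of accessory subunits and 1 of the catalytic CURLY LEAF, contig_26657 (0.45, SE 0.55). EMBRYONIC FLOWER 2 (EMF2), the zinc finger subunit that in Arabidopsis holds back flowering, had 11.3, 15.0 and 19.7 CPM in male flowers, against 8.88, 10.2 and 5.21 CPM in female flowers (contig_24108). All male libraries lay above all female libraries, at a log2 difference of 0.90 (SE 0.38, unadjusted p = 0.0446, edgeR adjusted p = 0.365). With both EMF2 unigenes summed the log2 difference was 0.57 (SE 0.34). FERTILIZATION-INDEPENDENT ENDOSPERM, the WD40 subunit, also showed no overlap, with 17.0, 19.6 and 20.9 CPM in male and 12.2, 14.0 and 17.0 CPM in female flowers (contig_14170, log2 difference 0.42, SE 0.29). VERNALIZATION 2, a relative of EMF2, had 16.7, 11.3 and 9.56 CPM in male and 9.62, 10.1 and 8.22 CPM in female flowers (contig_8559, log2 difference 0.42, SE 0.33).

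The catalytic subunits of the same complex, EZA1 (also called SWINGER) and CURLY LEAF (CLF), leaned to female flowers in 5 of 6 tested unigenes. EZA1 contig_14006 had 2.96, 3.49 and 2.67 CPM in male flowers, against 4.89, 7.58 and 5.21 CPM in female flowers. The groups did not overlap, and the log2 difference was -0.96 (SE 0.38, unadjusted p = 0.0379, edgeR adjusted p = 0.348). The other EZA1 unigenes were closer, at -0.28 (contig_14033) and -0.62 (contig_28438), and the sum of all 3 gave -0.50 (SE 0.37). CLF contig_16356 had 15.3, 12.6 and 9.56 CPM in male and 19.96, 14.99 and 6.30 CPM in female flowers, and the sum of the CLF unigenes gave a log2 difference of -0.14 (SE 0.47). Whether the accessory and the catalytic subunits differed from each other was not tested.

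Histone methyltransferases other than the Polycomb ones were the most numerous class, with 45 unigenes of which 42 were tested. Of these, 13 were higher in male and 29 higher in female flowers, at a median log2 difference of -0.23, and 0 were called. Scaled by library totals without TMM the counts were 9 and 33 (median -0.67). The smallest p of all members was that of ATXR5, which adds a single methyl group to histone H3 in heterochromatin. ATXR5 contig_20563 had 4.45, 6.64 and 7.29 CPM in male flowers, against 2.47, 2.72 and 2.47 CPM in female flowers. No male library reached down to a female one, and the log2 difference was 1.26 (SE 0.39, unadjusted p = 0.0118, edgeR adjusted p = 0.235). The second ATXR5 unigene leaned the same way by less (contig_34646, 0.45, SE 0.45), and the sum of both gave 0.89 (SE 0.36, adjusted p = 0.357).

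A pair of further unigenes in this class, of ASHH2 and SUVR5, had all male libraries above all female ones with an unadjusted p under 0.05. ASHH2, the methyltransferase of transcribed genes known for its part in flowering time and anther development, had 21.6, 21.2 and 36.6 CPM in male and 17.5, 15.2 and 11.5 CPM in female flowers for contig_6673 (log2 difference 0.84, SE 0.34, edgeR adjusted p = 0.356). The longer ASHH2 unigene, contig_933, measured the opposite way, with 59.3, 39.3 and 20.02 CPM in male and 59.9, 56.2 and 45.8 CPM in female flowers (log2 difference -0.45, SE 0.42). Because these unigenes share a name, the direction for the gene cannot be given. SUVR5, a zinc finger protein of gene silencing, had 12.7, 9.56 and 15.2 CPM in male and 7.32, 7.97 and 3.84 CPM in female flowers for contig_27153 (log2 difference 0.94, SE 0.38, edgeR adjusted p = 0.356), whereas the longest SUVR5 unigene, contig_22428, was at 0.17 (SE 0.43) and the third, contig_9517, at -0.35 (SE 0.48). The sum of all 3 SUVR5 unigenes gave 0.30 (SE 0.34).

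On the female side of the histone methyltransferases, unigenes with the same name leaned together for ASHH3 and ATXR2. All 3 ASHH3 unigenes were lower in male flowers, with summed levels of 9.50, 7.77 and 6.48 CPM in male and 14.3, 14.4 and 10.7 CPM in female flowers. In 2 of the 3 the groups did not overlap (all unigenes, 9.06% with every female library higher). The 3 may be pieces of 1 transcript and are not independent measurements. All 3 ATXR2 unigenes were lower too, with summed levels of 13.3, 18.7 and 11.3 CPM in male and 27.1, 32.6 and 13.2 CPM in female flowers, where female replicate 3 again reached into the male range. ASHR2 contig_4432 had the largest difference to the female side in this class by its mean, but 1 library set it. Its levels were 43.9, 33.6 and 67.2 CPM in male and 27.3, 34.5 and 321 CPM in female flowers, and the log2 difference of -1.40 (SE 0.91) became 0.78 without female replicate 3.

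Of the methyltransferases of silencing marks, SUVH4 (KRYPTONITE) is the one whose mark on histone H3 recruits CMT3. It had 65.9, 54.7 and 49.4 CPM in male and 69.2, 79.4 and 50.2 CPM in female flowers for contig_3077 (log2 difference -0.23, SE 0.31). ATXR3, the main enzyme of the active mark on histone H3, had 139.8, 103.8 and 78.0 CPM in male and 131.3, 141.9 and 84.4 CPM in female flowers (contig_6113, log2 difference -0.15, SE 0.38). In both the groups overlapped. The other tested SUVH4 unigenes with a mean RPKM of at least 1 gave 14.7, 8.86 and 16.5 CPM in male and 10.5, 9.19 and 4.11 CPM in female flowers (contig_7175, log2 difference 0.72, SE 0.43) and 47.1, 33.3 and 23.1 CPM in male and 48.1, 44.6 and 16.7 CPM in female flowers (contig_7176, log2 difference -0.09, SE 0.46), again with overlap. The 4 tested histone demethylase unigenes, all of the LSD1 type, lay between -0.31 and 0.23, and all overlapped between the sexes. LSD1 homolog 1, which removes an active mark, had 14.9, 14.5 and 22.5 CPM in male and 10.2, 13.2 and 24.1 CPM in female flowers (contig_14420). LSD1 homolog 3, known as FLOWERING LOCUS D for its part in flowering time, had 18.4, 17.9 and 13.9 CPM in male and 18.1, 21.7 and 10.4 CPM in female flowers (contig_12011, log2 difference -0.01, SE 0.35).

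Histone acetyltransferases leaned to male flowers in 8 of 12 tested unigenes, with a median log2 difference of 0.09, but in 2 of 12 (median -0.44) when scaled by library totals without TMM. In the fit blocked by replicate number the median was 0.04. The HAC1 unigenes leaned to female flowers under both scalings. HAC1 is the plant relative of the animal coactivator p300. Its unigene contig_5723 had 68.8, 62.4 and 60.1 CPM in male flowers, against 83.8, 85.2 and 128 CPM in female flowers, without overlap (log2 difference -0.63, SE 0.32, adjusted p = 0.449). The other, contig_9152, had 15.2, 16.8 and 12.3 CPM in male and 29.7, 34.98 and 16.7 CPM in female flowers, and female replicate 3 lay just below the highest male library (log2 difference -0.89, SE 0.35, unadjusted p = 0.0356, edgeR adjusted p = 0.341). Summed over both, HAC1 had 84.0, 79.5 and 72.4 CPM in male and 114.1, 120.1 and 142.3 CPM in female flowers, so that every male library was below every female one. The log2 difference of the sum was -0.67 (SE 0.27, unadjusted p = 0.0390, edgeR adjusted p = 0.359).

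A MYST-type acetyltransferase unigene and MCC1, which is known for its part in male meiosis, were higher in every male library than in every female library. The MYST-like unigene contig_7116 had 22.7, 24.6 and 24.8 CPM in male and 15.0, 18.8 and 12.1 CPM in female flowers (log2 difference 0.65, SE 0.29, adjusted p = 0.395). MCC1 contig_9131 had 25.4, 34.6 and 25.9 CPM in male and 20.8, 24.96 and 16.4 CPM in female flowers (log2 difference 0.46, SE 0.30, adjusted p = 0.552). The 2 GCN5 unigenes, the catalytic subunit of the SAGA coactivator, were at -0.10 (SE 0.38, contig_15933) and 0.16 (SE 0.39, contig_8004).

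Among the histone deacetylases, 8 of 15 tested unigenes were higher in male flowers and 7 higher in female ones, at a median log2 difference of 0.19, against 4 and 11 (median -0.11) when scaled by library totals without TMM. Without female replicate 3 the counts were 11 and 4 (median 0.37), and in the blocked fit the median was 0.03. HDA6, which works with MET1 in silencing, had 17.5, 15.4 and 13.6 CPM in male and 12.5, 12.9 and 25.5 CPM in female flowers (contig_8846, log2 difference -0.11, SE 0.37). A unigene whose best match was the human histone deacetylase 6, a different kind of enzyme from the Arabidopsis protein of that number, was contig_22270, with 4.45, 5.195 and 5.19 CPM in male and 2.56, 2.27 and 2.74 CPM in female flowers. Its male libraries all lay above its female libraries (log2 difference 0.98, SE 0.37, unadjusted p = 0.030, edgeR adjusted p = 0.322). HDA19, a partner of the floral corepressors, had 80.1, 55.5 and 48.0 CPM in male and 53.8, 50.7 and 31.0 CPM in female flowers (contig_6512, log2 difference 0.43, SE 0.35). The HDA2 unigene contig_32231 had 3.31, 2.79 and 2.19 CPM in male and 5.69, 9.36 and 3.02 CPM in female flowers (log2 difference -1.16, SE 0.49, unadjusted p = 0.0460, edgeR adjusted p = 0.367), and female replicate 3 lay below the highest male library. Of the plant-specific HD2-type deacetylases, HDT1 contig_178, named from the soybean protein, had 279, 91.6 and 75.8 CPM in male and 166, 111 and 115 CPM in female flowers, so that male replicate 1 alone stood high.

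The SWI/SNF ATPase SPLAYED (SYD), known in Arabidopsis for keeping the stem cell gene WUSCHEL on and for opening floral homeotic genes, was lower in male flowers in all 4 of its unigenes. First_Contig117 had 33.5, 26.8 and 4.78 CPM in male flowers, against 55.9, 67.1 and 44.4 CPM in female flowers. Every male library lay below every female library, and male replicate 3 was far below the rest (log2 difference -1.36, SE 0.63, unadjusted p = 0.0613, edgeR adjusted p = 0.404). The short unigene contig_3775 had 9.68, 4.80 and 1.22 CPM in male and 11.3, 14.1 and 6.03 CPM in female flowers, with male replicate 1 inside the female range (log2 difference -1.02, SE 0.68, adjusted p = 0.564). For contig_10697 the levels were 26.9, 21.7 and 7.86 CPM in male and 34.5, 43.4 and 22.8 CPM in female flowers, and for First_Contig81 they were 53.6, 64.7 and 36.0 CPM in male and 65.3, 88.9 and 56.7 CPM in female flowers. In each of the 4, male replicate 3 was the lowest library. WUSCHEL, which is not a member, was called in the other direction, with 7.59, 14.6 and 7.05 CPM in male and 1.24, 0.910 and 1.10 CPM in female flowers (contig_35309, log2 difference 3.18, SE 0.47, edgeR adjusted p = 0.0135). The reads of all 4 summed gave 123.8, 118.5 and 49.8 CPM in male and 167.8, 213.4 and 127.9 CPM in female flowers, which do not overlap, at a log2 difference of -0.80 (SE 0.43, adjusted p = 0.470). The 4 unigenes are not independent measurements, since they may come from 1 transcript.

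SYD was also measured by quantitative PCR in the study, and the primers are shown because they fix which SYD unigene that assay read, the 449-base contig_3775. The primers are given below as the study lists them, set in lower case throughout.
SYD forward: tgatattgaggctttgatgt
SYD reverse: atgggtctactttggatacttc
The reads on contig_3775 were few in the shallower libraries, with 111, 110 and 15 in the male libraries and 629, 1036 and 22 in the female libraries, in the order of their numbers.

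**Figure D3:**
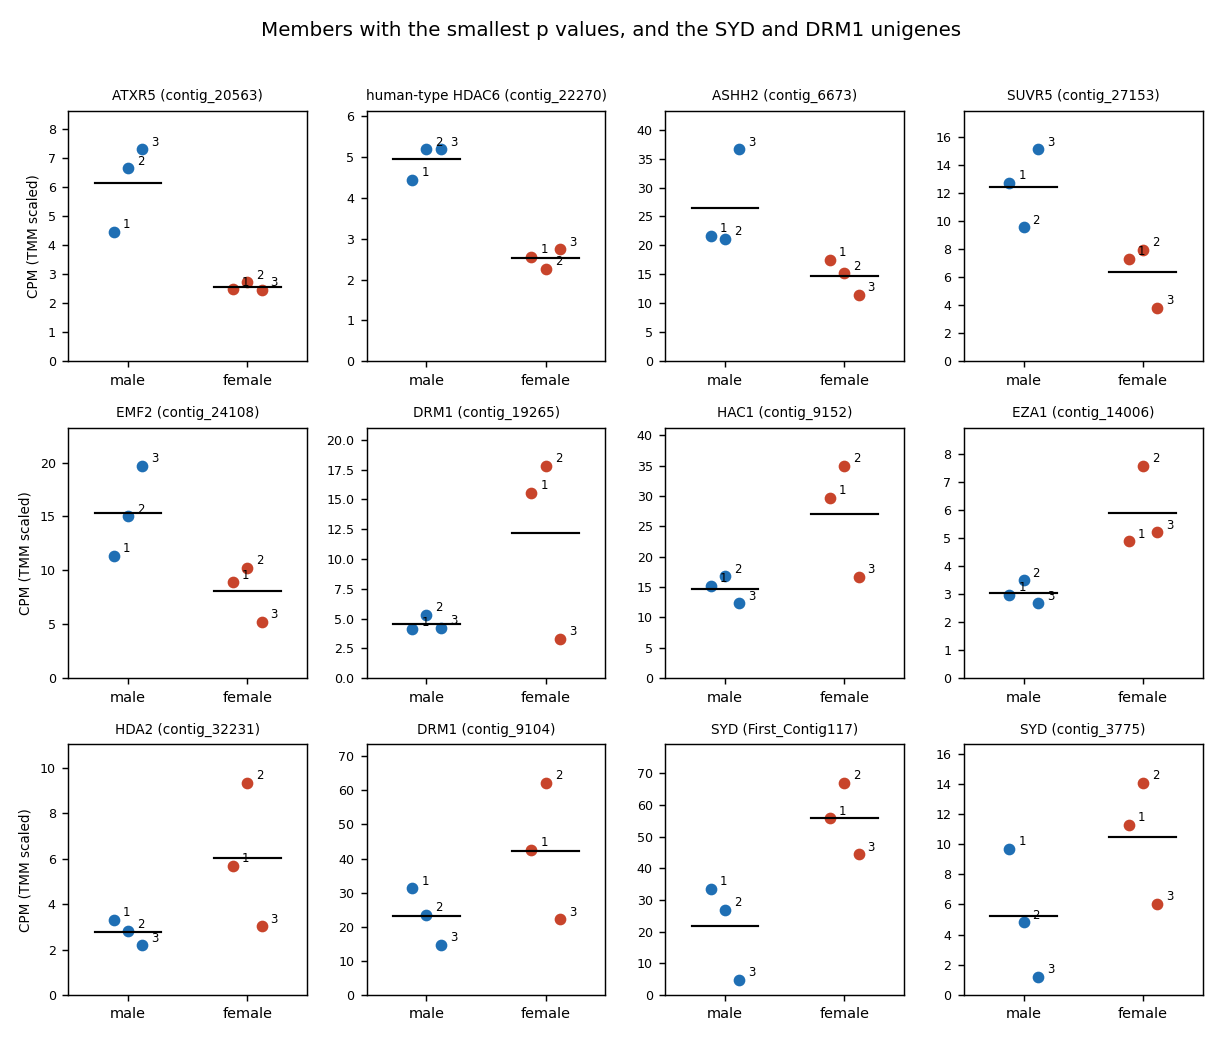
CPM (TMM scaled) of the 9 members with an unadjusted p under 0.05 and of 3 further unigenes of DRM1 and SYD, in 3 male (blue) and 3 female (red) libraries numbered by replicate, with the mean of each sex as a bar and each panel starting at 0. Male libraries lie above female ones without overlap in the first 5 panels, and female replicate 3 falls within or below the male range for DRM1, HAC1 (contig_9152) and HDA2.

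Of 20 remodeler unigenes tested, 8 were higher in male and 12 higher in female flowers, at a median log2 difference of -0.07, against 1 and 19 (median -0.52) when scaled by library totals without TMM. BSH, the SNF5-type core subunit of SWI/SNF, had 23.0, 25.9 and 22.1 CPM in male and 19.1, 21.2 and 24.1 CPM in female flowers (contig_18966, log2 difference 0.15, SE 0.27). The SWI3 subunits were at 0.03 (SWI3A, contig_20425), 0.47 (SWI3B, contig_21624), 0.20 (SWI3C, contig_5818) and -0.08 (SWI3D, contig_10269), with SEs of 0.28 to 0.37. PICKLE, the CHD3-type remodeler that represses embryonic genes, had 67.9, 47.1 and 35.9 CPM in male and 47.5, 52.3 and 47.7 CPM in female flowers for contig_15475 and a log2 difference of -0.01 (SE 0.34) for contig_592. The ATPase chain unigene contig_5526, a further chromatin remodeling ATPase, had 122, 93.8 and 74.6 CPM in male and 140, 137 and 69.6 CPM in female flowers, with full overlap (log2 difference -0.26, SE 0.40). The largest difference of any member to the female side was in a low SWI/SNF-related unigene, contig_22012, with 2.01, 1.09 and 1.22 CPM in male and 7.68, 4.20 and 0.822 CPM in female flowers (log2 difference -1.63, SE 0.71, adjusted p = 0.384). There the groups overlapped through female replicate 3, the lowest library of all 6. A second low SWI/SNF-related unigene, contig_18693, had 2.96, 1.66 and 0.810 CPM in male and 5.21, 5.79 and 1.64 CPM in female flowers (log2 difference -1.27, SE 0.64, adjusted p = 0.443), again with overlap.

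Levels could be compared between unigenes only per length, in CPM per kb averaged over the 6 libraries. The tested members had a median of 6.99 CPM per kb, against 5.46 for all unigenes tested, and ran from 0.599 to 101 CPM per kb. HDT1 contig_178 was highest at 101, followed by HDT1 contig_11313 at 50.2, the SAP18 unigene contig_8841 at 49.9, SAP18 being a subunit of deacetylase complexes, and ASHR2 contig_4432 at 47.3. DRM1 contig_9104 (34.5), HDA5 contig_4186 (33.8) and DRM2 contig_6067 (29.98) came next. MET1 contig_13773 at 4.17 CPM per kb, the maize-matched contig_26777 at 5.68 and CMT3 contig_16164 at 11.05 were lower than DRM1 contig_9104 and DRM2 contig_6067. Further DRM unigenes were lower than CMT3 contig_16164, at 3.81 (DRM1 contig_19265), 9.19 (DRM1 contig_9765) and 8.58 (DRM2 contig_8288). All 4 SYD unigenes lay between 16.4 and 20.3 CPM per kb.

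**Figure D4:**
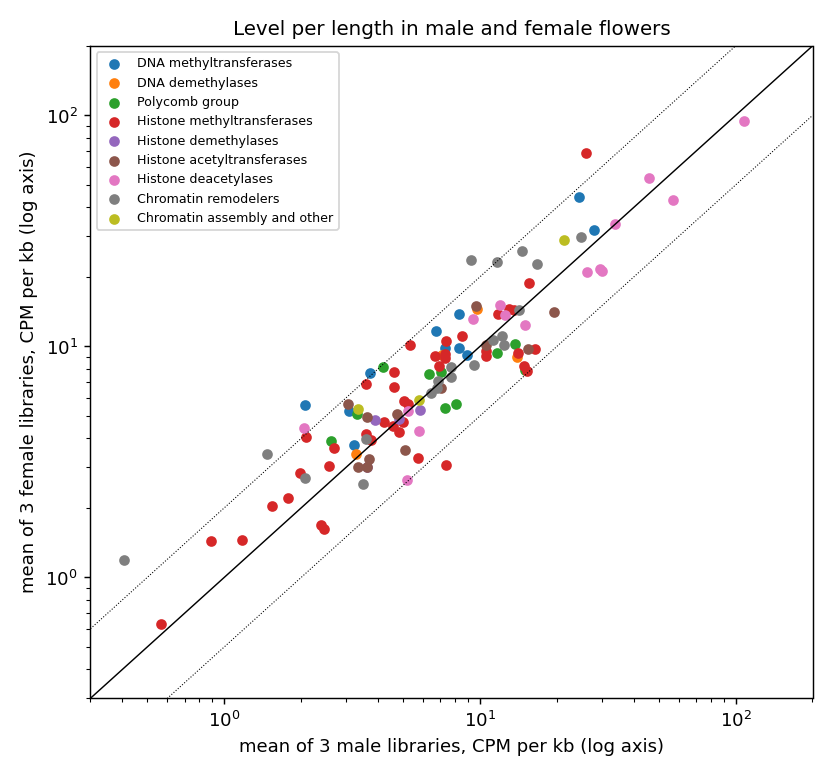
Mean level in 3 female libraries against mean level in 3 male libraries, in CPM per kb on log axes, for the 121 tested members, coloured by class, with the line of equal levels and dotted lines at a 2-fold difference. Members span 0.599 to 101 CPM per kb on average, and 9 of the 121 had a fitted difference of at least 2-fold.

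Across the 6 libraries, members varied somewhat less than other unigenes, with a median range of 1.25 on the log2 scale, against 1.52 for all unigenes tested. Female replicate 3 was the lowest library for 55 of the 121 members (45.5%, against 29.7% of all unigenes tested), and male replicate 3 for 35. Female replicate 2 was the highest library for 38 members and male replicate 1 for 27. The mean centred level of the members was 0.17, -0.06 and -0.26 in the male libraries, in the order of their numbers, and 0.23, 0.31 and -0.39 in the female libraries, so the libraries of 1 sex differed by more than the sexes did. Without female replicate 3, 11 members had an unadjusted p under 0.05 with higher values in male flowers (all unigenes, 14.1%) and 9 with higher values in female flowers (all unigenes, 15.8%), of 126 tested, at a median log2 difference of -0.16.

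A list of 118 other chromatin unigenes, which the rule did not take in, was set beside the members: readers of methylation, JmjC demethylases, PHD finger proteins, arginine methyltransferases and CHD remodelers. Of these, 108 were tested and 0 were called, with 2 higher in male and 7 higher in female flowers at an unadjusted p under 0.05 (8.33%, against 13.2% of all unigenes) and a median log2 difference of -0.09. CHD4 contig_7556, named from an animal remodeler, had 10.8, 10.6 and 5.92 CPM in male and 27.9, 41.2 and 10.1 CPM in female flowers. Its groups overlapped through female replicate 3 (log2 difference -1.55, SE 0.52, edgeR adjusted p = 0.277). The other tested CHD4 unigenes differed less, at 0.26 (contig_11333, SE 0.27), -0.05 (contig_13601, SE 0.42) and -0.23 (contig_2763, SE 0.28). MBD4, a methyl-CpG-binding domain protein, had 12.3, 13.7 and 11.1 CPM in male and 7.48, 7.63 and 7.13 CPM in female flowers (contig_19161, log2 difference 0.74, SE 0.29, edgeR adjusted p = 0.342), without overlap. VERNALIZATION INSENSITIVE 3, which works with Polycomb in vernalization, had 56.2, 13.9 and 11.1 CPM in male and 14.0, 12.1 and 6.30 CPM in female flowers (contig_12720), so that male replicate 1 set its log2 difference of 1.30 (SE 0.65).

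When the reads of unigenes with the same name were summed, 80 of the 82 names could be tested and 0 were called, against 1.32% of all names, with 1 name higher in male flowers (ATXR5) and 1 higher in female flowers (HAC1) at an unadjusted p under 0.05. Names were summed whatever the species of the match. This summing was chosen after the data were seen. The study calls the samples biological replicates, but the labels do not tie them to separate trees, so that p-values measure the spread between these samples.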

How the data were processed

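The authors sequenced RNA of 3 male and 3 female stage 7 bud samples, trimmed reads, assembled unigenes de novo with CLC Genomics Workbench and CAP3, and deposited read counts and RPKM values (reads scaled by unigene length and library total) per unigene and library. The mapper and counter are not given in the sources used here. Recomputed RPKM differed from the deposited RPKM by at most 4.73e-08 in relative terms. Lines without a unigene (7) were left out. Columns were assigned to sexes by the an and gy prefixes of their names, and the numbers to the sample titles.

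The member rule was applied to the text after the first colon of each SwissProt description. Members and lists were chosen with earlier results of these data known. Counts were tested in R 4.3.3 with edgeR 4.0.16 (filterByExpr, TMM, quasi-likelihood F test, Benjamini-Hochberg adjustment over all unigenes, sex as the only term), and checked on simulated data. SE was computed from the F statistic, as the size of the log2 difference over the root of F. DESeq2 1.42.0 and limma 3.58.1 were alternatives. Effective totals of 3648171 to 73636463 reads make female replicate 3 the least precise library.

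Named members, with values in every library, were the 5 smallest p in each direction, the most abundant of each class, those the study named, and well-known floral or methylation regulators. ASHR3, FAS1, FAS2, CMT2, ATXR3, ATXR6, contig_18693, WUSCHEL, the ASHH3 and ATXR2 groups, MYST-like unigene and the unigenes of the related list were picked after their values were seen. Deviations from the sex mean correlated by 0.19, 0.13 and 0.37 for samples of the same title number. For other pairs the correlations ran from -0.32 to 0.16, so the ranges overlapped. Whether the numbers pair the samples was thus not settled, and the main fit left the samples unpaired. A fit with the number as a block, other filters, scalings and tools, and each library left out were the alternatives.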

Additional observations from a re-analysis of the deposited data

How the results depend on the processing

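The edgeR count of called members stayed at 0 under all alternatives except 1. Leaving out each library in turn gave 0 to 1 called members, the 1 being DRM1 contig_19265 without female replicate 3. Calls over all unigenes numbered 499, against 802 with no filter, 287 at a mean RPKM of at least 5 and 1755 with DESeq2, and ran from 269 to 970 when libraries were left out. The members' median of -0.14 ran from -0.18 to 0.01 when libraries were left out and was -0.61 with library totals without TMM. With the replicate block 0 members and 521 unigenes were called and the members' median was -0.068, and the block changed no call of a member. Of 777 alternative log2 differences of 56 named members, 700 kept their sign and side of the threshold, and 32 of the members never changed sign. The causes were not tested. With DESeq2 the sign turned in SWI3D contig_10269 (0.0046), LSD1 homolog 3 contig_12011 (0.070), PICKLE contig_592 (0.071), SUVH4 contig_7176 (0.00054) and DEMETER contig_7513 (0.015). With library totals without TMM the sign turned in EMF2 contig_12816 (-0.21), PICKLE contig_15475 (-0.37), HDT1 contig_178 (-0.35), BSH contig_18966 (-0.13), SWI3A contig_20425 (-0.51), CLF contig_26657 (-0.14), SWI3C contig_5818 (-0.17), HDA19 contig_6512 (-0.11), GCN5 contig_8004 (-0.29) and VERNALIZATION 2 contig_8559 (-0.029). With limma on log2(RPKM + 0.1) the sign turned in LSD1 homolog 3 contig_12011 (0.010), PICKLE contig_15475 (-0.040), HDT1 contig_178 (-0.061), CMT3 contig_37036 (0.85) and DEMETER contig_7513 (0.077). With limma on log2(RPKM + 1) the sign turned in PICKLE contig_15475 (-0.087), HDT1 contig_178 (-0.066) and SWI3A contig_20425 (-0.060). At a mean RPKM of at least 5 the sign turned in PICKLE contig_15475 (-0.11), BSH contig_18966 (-0.0015) and SWI3A contig_20425 (-0.13). With median-of-ratios scaling the sign turned in LSD1 homolog 3 contig_12011 (0.0056) and PICKLE contig_592 (0.0025). With no filter the sign turned in SWI3D contig_10269 (0.061), LSD1 homolog 3 contig_12011 (0.13), GCN5 contig_15933 (0.053), PICKLE contig_592 (0.12), SUVH4 contig_7176 (0.040), DEMETER contig_7513 (0.029) and HDA6 contig_8846 (0.027). With the replicate block the sign turned in LSD1 homolog 3 contig_12011 (0.042), PICKLE contig_15475 (-0.014), HDT1 contig_178 (-0.046), PICKLE contig_592 (0.0085) and DEMETER contig_7513 (0.13). When 1 library was left out, the sign turned in some setting for members whose values ranged as follows: PICKLE contig_15475 (-0.11 to 0.33), PICKLE contig_592 (-0.073 to 0.22), CMT3 contig_37036 (-0.71 to 0.19), DRM2 contig_6067 (-0.31 to 0.18), GCN5 contig_15933 (-0.21 to 0.22), HDA6 contig_8846 (-0.30 to 0.43), HDT1 contig_178 (-0.51 to 0.60), ASHR2 contig_4432 (-1.88 to 0.78), CLF contig_16356 (-0.34 to 0.19), EZA1 contig_14033 (-0.38 to 0.084), SUVH4 contig_7176 (-0.29 to 0.26), LSD1 homolog 1 contig_14420 (-0.10 to 0.71), LSD1 homolog 3 contig_12011 (-0.11 to 0.23), ATPase chain contig_5526 (-0.38 to 0.019), SWI3A contig_20425 (-0.061 to 0.31), SWI3D contig_10269 (-0.089 to 0.19) and DEMETER contig_7513 (-0.49 to 0.38). Precision was limited by depth most in female replicate 3, the shallowest library.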
